A study of Homo sapiens with 4 samples.

Results

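The genes of the ATG8 and ATG12 conjugation systems were examined for peaks of RNA polymerase II (Pol II). The 10 genes were ATG3, ATG4B, ATG5, ATG7, ATG10, ATG12, ATG16L1, GABARAP, GABARAPL2 and MAP1LC3B, taken by name from the 20033 protein-coding genes of GENCODE release 44 on chromosomes 1 to 22, X and Y. Every peak lying in the span of a gene or in the 2 kb on either side of it was recorded, with its place, its width and the rank of its score within its list. The study carried out Pol II chromatin immunoprecipitation with sequencing in SK-OV-3, an established human ovarian cancer cell line, to ask how RRN3, which RNA polymerase I needs to start transcription, affects transcription by Pol II. Cells that expressed a short hairpin RNA against RRN3 (shRRN3) were compared with control cells whose hairpin was directed at LacZ, a bacterial gene (shLacZ). Per the methods, stable lines were made with a lentiviral vector. The methods give several hairpins against RRN3, and which of them was used in these libraries is not given in the sources used here. Each hairpin had 1 Pol II library, represented by 1 peak list, and 1 input library, which was not analysed here.

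Autophagosomes grow with the help of a pair of linked conjugation reactions that resemble the attachment of ubiquitin. ATG7 acts as the E1-like activating enzyme for both. In the first, ATG10 passes ATG12 to ATG5, and the product binds ATG16L1. In the second, ATG3 passes the small ATG8 proteins, which in human cells are the LC3 and GABARAP families, to phosphatidylethanolamine in the membrane, with the complex of ATG12, ATG5 and ATG16L1 acting as the E3-like factor. The protease ATG4B trims the ATG8 proteins before conjugation and also removes them from the lipid.

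The shLacZ list was made up of 4014 peaks, and that of shRRN3 of 14363. The lists hold no read counts, so the depth behind them is unknown from these files, and depth given elsewhere was not used. With 1 library per hairpin there was no replicate error to judge a difference by, and none was tested. The targeted gene RRN3 had no peak in either list, so the lists give no measure of the knockdown. Among the markers of the line, ERBB2 and KRT19 had no peak in either list, and KRT8 and KRT18 had peaks in shRRN3 alone. Of the 5 markers of blood, liver and endothelium, PECAM1 had 1 peak in shRRN3 and the others had none.

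Pol II peaks were recorded for 4 of the 10 conjugation genes in shLacZ and for 8 of the 10 in shRRN3. The shLacZ genes were ATG7, ATG10, GABARAP and MAP1LC3B, and all of them also had a peak in shRRN3. ATG3, ATG4B, ATG5 and ATG12 had peaks in shRRN3 alone. ATG16L1 and GABARAPL2 had none in either list. Among all protein-coding genes, 13.4% had such a peak in shLacZ and 36.9% in shRRN3. These shares are totals for each list. The share of all genes with such a peak in shRRN3 alone, or in neither list, is not given here. The conjugation genes had a median length of 33091 bp, beside 27471 bp over all protein-coding genes, and a longer gene has more room for a peak. The median hides a wide range, from 2442 bp to 304835 bp. ATG5, ATG7 and ATG10 were the longest, at 280369, 285357 and 304835 bp. They held 5, 1 and 5 of the 20 shRRN3 peaks, and 0, 1 and 3 of the 6 shLacZ peaks.

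A start peak was defined as a peak whose midpoint was within 1 kb of the start of the annotated gene span. In shLacZ, 2 of the 10 genes had one, ATG10 and GABARAP, beside 7.56% of all protein-coding genes. In shRRN3, 6 of the 10 had one, namely ATG3, ATG5, ATG7, ATG10, ATG12 and GABARAP, beside 23.7% of all genes. ATG3, ATG5, ATG7 and ATG12 therefore had a start peak in shRRN3 and none in shLacZ, a state found in 17.3% of all protein-coding genes. When the start of the canonical transcript was used in place of the bound of the span, 3 genes had a start peak in shLacZ, MAP1LC3B being the added one, and 6 had one in shRRN3. On that definition the shares of all genes were 8.18% and 25.4%.

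The count in shRRN3 depended on the length of the list. When only the 3920 peaks of shRRN3 with the highest scores were used, to match the number of shLacZ peaks on these chromosomes, the list kept start peaks at ATG10 and ATG12, which was 2 of the 10 genes, beside 9.74% of all protein-coding genes. The start peaks of ATG3, ATG5, ATG7 and GABARAP scored below that limit.

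**Figure D1:**
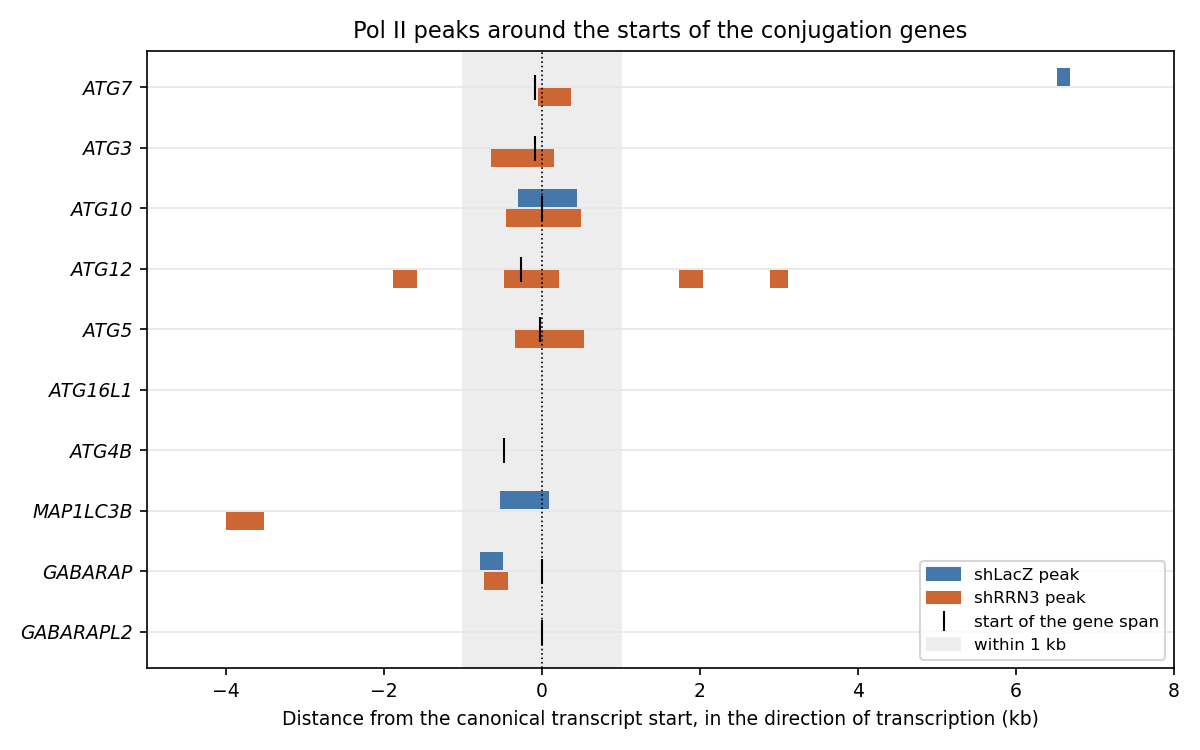
Pol II peaks of shLacZ (blue) and shRRN3 (orange) around the canonical transcript start of each of the 10 genes, with distance in kb along the direction of transcription. Bars span whole peaks, black ticks mark the start of the gene span where it lies within the plot, and the grey band marks 1 kb on either side of the canonical start. Peaks of both lists lie in the band for ATG10 and GABARAP, shRRN3 peaks alone for ATG3, ATG5, ATG7 and ATG12, and a shLacZ peak alone for MAP1LC3B.

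The sequences at 6 of these loci are shown because the results turn on whether Pol II was found there. They were read from the hg38 genome on the strand of the gene and chosen free of annotated protein-coding exons. Capitals mark matches on either strand to CACGTG (E-box), GTCACGTG (the CLEAR-type extension of it), TGACGTCA (CRE), CCGGAAG (ETS), AAGATGGC (YY1), GCATGCGC (NRF1), GGGCGG (GC box), CCAAT or TATAAA. The ATG10 stretch, the 250 bases before the gene start at chr5:81971773-81972022 on the plus strand, lay wholly under a peak in both lists. The ATG12 stretch, the 97 bases between the start of the ATG12 span and the canonical start of AP3S1 at chr5:115841838-115841934, read on the minus strand, lay wholly under the shRRN3 peak. The ATG5 stretch, the 250 bases before the gene start at chr6:106325792-106326041 on the minus strand, also lay wholly under a shRRN3 peak. The ATG7 stretch, at chr3:11272059-11272308 on the plus strand, ended just short of the shRRN3 peak, which began past the start of the span. The GABARAP stretch, at chr17:7242939-7243187 on the minus strand, is the 249 bases that the peaks of both lists shared. The GABARAPL2 stretch, at chr16:75566125-75566374 on the plus strand, had no peak over it in either list and is shown beside the others for that reason.
ATG10: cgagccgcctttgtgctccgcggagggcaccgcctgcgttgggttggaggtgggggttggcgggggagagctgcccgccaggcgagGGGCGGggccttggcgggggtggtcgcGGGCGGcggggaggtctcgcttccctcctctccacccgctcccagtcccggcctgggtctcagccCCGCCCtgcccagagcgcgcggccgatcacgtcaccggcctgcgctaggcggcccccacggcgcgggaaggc
ATG12: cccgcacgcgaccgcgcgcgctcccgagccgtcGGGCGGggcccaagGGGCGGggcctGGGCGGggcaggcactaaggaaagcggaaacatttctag
ATG5: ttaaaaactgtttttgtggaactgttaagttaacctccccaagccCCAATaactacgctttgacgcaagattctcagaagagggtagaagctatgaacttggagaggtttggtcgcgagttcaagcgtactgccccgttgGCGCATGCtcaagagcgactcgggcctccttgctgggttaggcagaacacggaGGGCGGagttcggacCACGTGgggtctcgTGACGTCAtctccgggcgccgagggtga
ATG7: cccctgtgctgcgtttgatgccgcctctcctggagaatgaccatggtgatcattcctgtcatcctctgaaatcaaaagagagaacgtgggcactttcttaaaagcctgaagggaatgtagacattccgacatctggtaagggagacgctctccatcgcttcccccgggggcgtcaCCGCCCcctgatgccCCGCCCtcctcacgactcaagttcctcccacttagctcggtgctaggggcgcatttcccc
GABARAP: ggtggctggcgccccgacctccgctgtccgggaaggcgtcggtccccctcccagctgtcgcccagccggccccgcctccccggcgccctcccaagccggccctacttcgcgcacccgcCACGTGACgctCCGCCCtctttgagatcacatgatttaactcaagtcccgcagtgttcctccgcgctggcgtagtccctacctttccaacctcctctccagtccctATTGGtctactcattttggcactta
GABARAPL2: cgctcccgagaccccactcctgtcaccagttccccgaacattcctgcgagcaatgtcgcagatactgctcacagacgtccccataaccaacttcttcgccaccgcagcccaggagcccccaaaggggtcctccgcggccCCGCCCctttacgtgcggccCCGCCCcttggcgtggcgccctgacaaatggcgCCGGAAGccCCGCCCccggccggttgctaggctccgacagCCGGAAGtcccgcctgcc
GC boxes appeared in all 6 stretches, with 3 in ATG10, 3 in ATG12, 3 in GABARAPL2, 2 in ATG7, 1 in ATG5 and 1 in GABARAP. The stretch shared by both GABARAP peaks held 1 E-box, and it was of the CLEAR type. The ATG5 stretch held 1 E-box, 1 CRE and 1 NRF1 match.

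ATG7, the E1-like enzyme (ENSG00000197548.13), spans chr3:11272309-11557665 on the plus strand. The shRRN3 list gave it 1 peak at chr3:11272348-11272763, 416 bp wide, with its midpoint 158.5 bp past the canonical start. The peak covered the whole of exon 1 of the canonical transcript, and its midpoint lay in intron 1. It scored 88.93 and ranked 5210 of 14363. The shLacZ list also gave ATG7 1 peak, but at chr3:11278916-11279083, deeper in intron 1 and 6602.5 bp past the canonical start. It was 168 bp wide, scored 54.42 and ranked 3196 of 4014. The peaks were 6152 bp apart, so ATG7 carried a peak in both lists without any shared position.

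ATG3, the E2-like enzyme of the ATG8 arm (ENSG00000144848.11), spans chr3:112532510-112562046 on the minus strand and shares its promoter with SLC35A5, which is transcribed the other way. The canonical starts were 83 bp apart. A peak at chr3:112561805-112562608 in shRRN3, 804 bp wide, covered both of them, and its midpoint lay 244.5 bp before the ATG3 start and 161.5 bp from that of SLC35A5. It scored 58.28 and ranked 10923 of 14363, the lowest rank among the shRRN3 start peaks of these genes. The peak cannot be assigned to either gene, and shLacZ had no peak within 59246 bp of it.

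ATG10, the E2-like enzyme of the ATG12 arm (ENSG00000152348.16), spans chr5:81972023-82276857 on the plus strand and had start peaks in both lists. The shLacZ peak at chr5:81971724-81972472 was 749 bp wide, with its midpoint 75 bp past the start, scored 87.36 and ranked 1104 of 4014. The shRRN3 peak at chr5:81971564-81972515 was 952 bp wide, with its midpoint 16.5 bp past the start, scored 129.96 and ranked 2434 of 14363. The shLacZ peak lay wholly within the shRRN3 peak, and both covered exon 1 and the printed ATG10 stretch.

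The other ATG10 peaks lay at its far end, where it meets RPS23, the gene of a protein of the small ribosomal subunit. The spans of the genes overlap by 3538 bp on opposite strands. The shRRN3 peak at chr5:82277691-82278916, 1226 bp wide, had its midpoint 50.5 bp from the canonical RPS23 start and 1446.5 bp past the ATG10 end. It scored 261.75 and ranked 484 of 14363, the highest rank of any shRRN3 peak recorded for these genes. The same place in shLacZ held a pair of adjoining peaks, at chr5:82278108-82278537 and chr5:82278539-82278869. They scored 60.44 and 62.7 and ranked 2458 and 2272 of 4014. Scores of the lists are not on a common scale, since they depend on depth. Peaks at chr5:82273802-82274564 and chr5:82275251-82275711 in shRRN3, inside the spans of both genes, scored 177.54 and 100.39. A narrow shRRN3 peak of 188 bp at chr5:82266256-82266443, outside RPS23, scored 51.33. All of these far-end peaks lay past the end of the canonical ATG10 transcript. The peaks at the RPS23 start therefore counted as ATG10 peaks through the 2 kb around the gene, and the other far-end peaks through the span itself. The highest-scoring far-end shRRN3 peak sat at the start of another gene.

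ATG12, the ubiquitin-like modifier (ENSG00000145782.13), spans chr5:115828200-115841837 on the minus strand. It shares its promoter with AP3S1, a subunit of the AP-3 adaptor complex, and the spans of the genes overlap by 246 bp, with canonical starts 370 bp apart. The shRRN3 peak at chr5:115841348-115842045, 698 bp wide, covered both starts. Its midpoint lay 131.5 bp before the canonical ATG12 start and 238.5 bp from that of AP3S1, and it scored 173.38 and ranked 1285 of 14363. Its score was the highest among the shRRN3 start peaks of the 10 genes. The printed ATG12 stretch, with its 3 GC boxes, lies between these starts.

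The other 4 shRRN3 peaks recorded for ATG12 were all narrow and low in rank. Peaks of 303 bp and 240 bp lay in intron 1, 1891 bp and 3000.5 bp past the canonical start, and scored 57.81 and 51.12. A peak of 293 bp, scoring 59.29, lay inside AP3S1, and a peak of 218 bp, scoring 54.72, lay 866.5 bp past the ATG12 end. AP3S1 itself had 8 shRRN3 peaks. No shLacZ peak was recorded for ATG12 or AP3S1, and the shLacZ midpoint nearest to the canonical ATG12 start was 81287.5 bp away.

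ATG5, the acceptor of ATG12 (ENSG00000057663.16), spans chr6:106045423-106325791 on the minus strand and had 5 peaks in shRRN3 and none in shLacZ. The start peak at chr6:106325224-106326096 was 873 bp wide, with its midpoint 100 bp past the canonical start in exon 1, scored 89.54 and ranked 5154 of 14363. The other 4 peaks lay in introns and were between 247 bp and 340 bp wide. The highest of them, at chr6:106192869-106193208 in intron 7, scored 111.99 and ranked 3318, above the start peak. Those in intron 5, intron 4 and intron 2 scored 65.16, 55.14 and 50.06, and the last of these ranked 14336 of 14363. The nearest shLacZ peak to the ATG5 start peak was 648356 bp away.

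ATG16L1, the partner that brings the ATG12 and ATG5 conjugate to the membrane (ENSG00000085978.22), spans chr2:233210051-233295674 on the plus strand and had no peak in either list. Its canonical start lies 41622 bp inside the span. The nearest peak midpoint to that start was 996840 bp away in shLacZ and 175112 bp away in shRRN3, so no choice of start gave ATG16L1 a peak.

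ATG4B, the protease (ENSG00000168397.17), spans chr2:241637213-241673857 on the plus strand and shares a promoter with THAP4, whose span begins 55 bp away on the other strand. Neither gene had a start peak in either list. The peak recorded for ATG4B, in shRRN3 alone at chr2:241674672-241675341, was 670 bp wide, scored 83.46 and ranked 5871 of 14363. It lay past the end of the gene, with its midpoint 1149.5 bp from the ATG4B end and 740.5 bp from the end of DTYMK, in the 1889 bp gap between these convergent genes. The gene span alone held no peak.

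MAP1LC3B, which encodes the ATG8 protein LC3B (ENSG00000140941.14), spans chr16:87383953-87404779 on the plus strand, and its canonical start lies 8383 bp inside the span. The shLacZ peak at chr16:87391800-87392426, 627 bp wide, covered the canonical start, with its midpoint 223 bp before it, scored 73.24 and ranked 1610 of 4014. The same peak had its midpoint 29 bp from the span start of FBXO31, which is transcribed on the other strand and overlaps MAP1LC3B by 8190 bp. The shRRN3 peak, at chr16:87388329-87388814, was 486 bp wide, scored 138.26 and ranked 2155 of 14363, and lay 3764.5 bp before the canonical start, inside FBXO31. The peaks of the lists were 2985 bp apart, and MAP1LC3B was the gene in this set with a canonical start peak in shLacZ and none in shRRN3. A copy of this gene, MAP1LC3B2, exists elsewhere in the genome, and how reads that match several places were treated is not given in the sources used here.

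GABARAP, an ATG8 protein (ENSG00000170296.10), spans chr17:7240008-7242449 on the minus strand and is 2442 bp long, the shortest of the 10 genes. The shLacZ peak at chr17:7242939-7243234 was 296 bp wide, scored 109.28 and ranked 684 of 4014, with its midpoint 637.5 bp before the start. The shRRN3 peak at chr17:7242878-7243187 was 310 bp wide, scored 90.23 and ranked 5092 of 14363, with its midpoint 583.5 bp before the start. The peaks overlapped, and they counted as start peaks by the 1 kb rule without touching exon 1. They lay in the 1141 bp between GABARAP and the end of CTDNEP1, 504.5 bp and 558.5 bp past that end. Both midpoints also lay inside the span of another gene on the same strand, annotated as a protein-coding readthrough gene, ENSG00000262526.2, with its start 1548.5 bp from the shLacZ midpoint and 1602.5 bp from that of shRRN3. Which of the 3 genes the peaks belong to was not tested.

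GABARAPL2, another ATG8 protein (ENSG00000034713.8), spans chr16:75566375-75577881 on the plus strand and had no peak in either list. The nearest midpoint to its canonical start was 101610 bp away in shLacZ and 49157 bp away in shRRN3. The sequence before its start held 3 GC boxes and 2 ETS matches, as printed above.

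**Figure D2:**
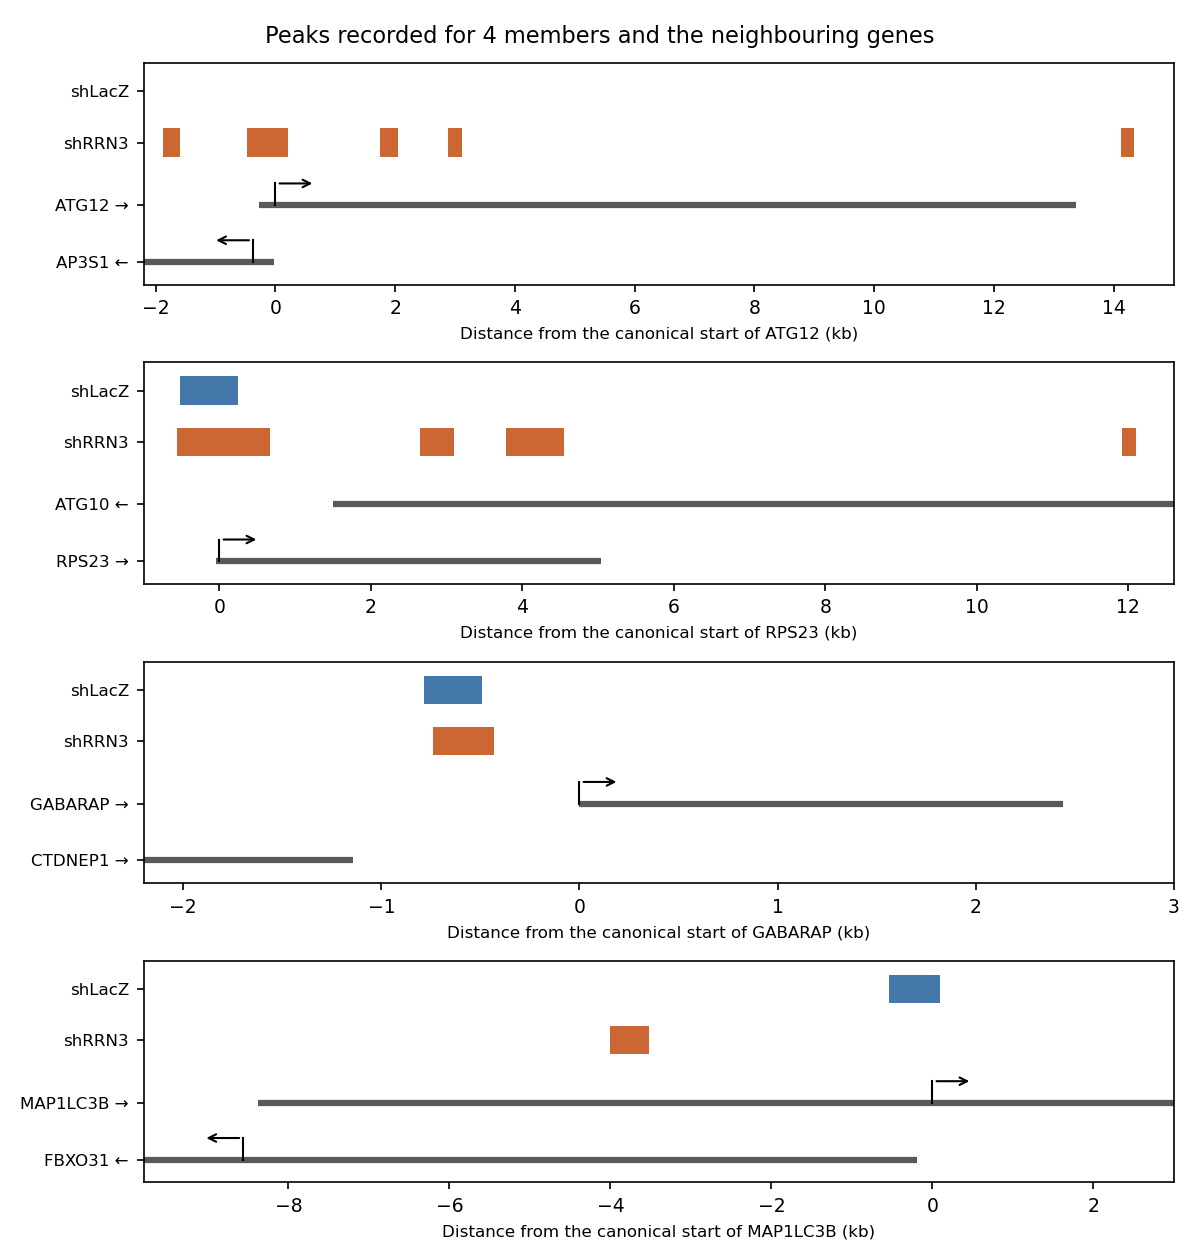
Peaks recorded for ATG12, ATG10, GABARAP and MAP1LC3B (blue, shLacZ; orange, shRRN3) above the spans of these genes and of a neighbour (grey bars), with distance in kb from the canonical start named under each panel. Arrows beside the names give the direction of transcription, bent arrows mark canonical starts, and spans are cut at the panel edges. The ATG12 start peak covers the AP3S1 start, the highest-scoring shRRN3 peak recorded for ATG10 sits at the RPS23 start, the GABARAP peaks lie between CTDNEP1 and GABARAP, and the MAP1LC3B peaks of the lists do not overlap. In the ATG10 panel the shLacZ bar is a pair of adjoining peaks.

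Shared promoters were counted next. A partner was a protein-coding gene with a start within 1 kb on the opposite strand. Starts of the same kind were compared (span with span, or canonical with canonical), and the shares given are for spans. The genes did not have to point away from each other, so pairs with overlapping ends at their starts also counted. By their spans, ATG3 with SLC35A5 and ATG12 with AP3S1 were such pairs. Of the 10 conjugation genes, 3 had one, ATG3 with SLC35A5, ATG4B with THAP4 and ATG12 with AP3S1, beside 13.4% of all protein-coding genes. In shRRN3, 2 of these 3 genes had a start peak, and so had 4 of the 7 without a partner. Over all protein-coding genes the shRRN3 shares were 48.7% with a partner and 19.9% without. In shLacZ none of the 3 had a start peak, and the shares over all genes were 14.1% and 6.55%. SLC35A5 and AP3S1 had a start peak in shRRN3, THAP4 had none, and none of the 3 partners had one in shLacZ. MAP1LC3B and FBXO31 were not counted as a pair by this definition, although the canonical MAP1LC3B start and the span start of FBXO31 were 194 bp apart and FBXO31 had a start peak in shLacZ.

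**Figure D3:**
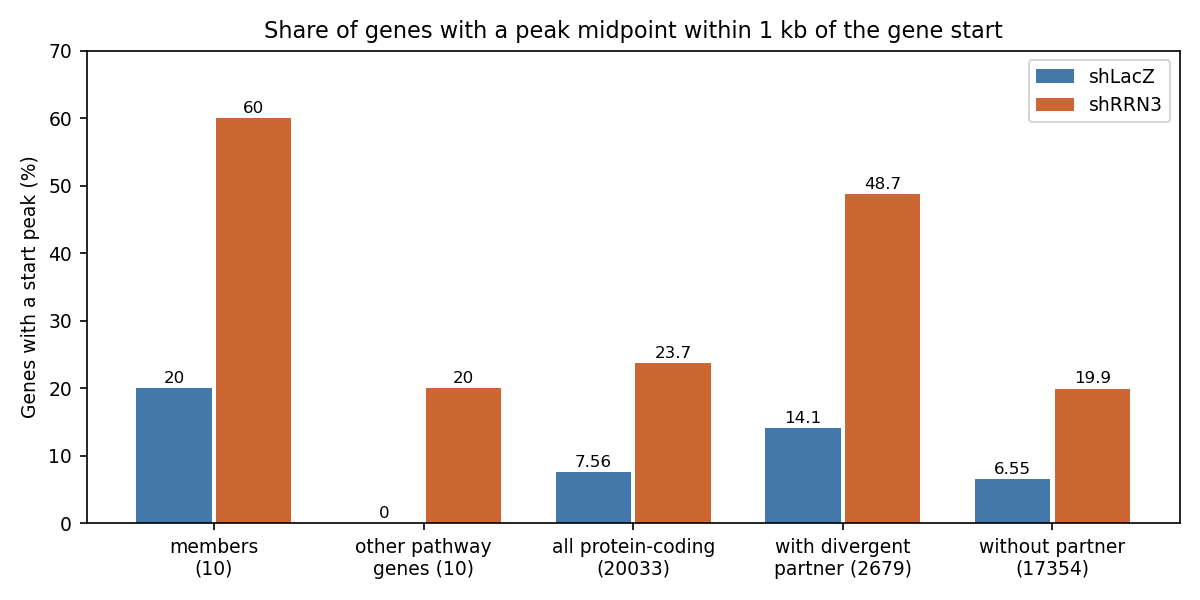
Percentage of genes with a start peak in shLacZ (blue) and shRRN3 (orange). From left, the groups are the 10 conjugation genes (members), 10 other genes of the pathway, all protein-coding genes, and those with and without a partner. A partner has a span start within 1 kb on the opposite strand. The axis label calls it divergent, although its direction was not required. Each bar is a share of 1 list with no error bar, since each hairpin had 1 library. The members stand at 20% and 60%, and all protein-coding genes at 7.56% and 23.7%.

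A list of 10 other genes of the pathway held the remaining ATG4 proteases ATG4A, ATG4C and ATG4D, the ATG16L1 homologue ATG16L2, the ATG8 genes GABARAPL1, MAP1LC3A, MAP1LC3B2 and MAP1LC3C, and WIPI2 and TECPR1, which bind members of the ATG16L1 complex. None of them had a peak in shLacZ, beside 13.4% of all protein-coding genes. In shRRN3, 2 of the 10 had a start peak, beside 23.7% of all protein-coding genes, and the other 8 had no peak. The ATG4C peak at chr1:62783657-62784690 was 1034 bp wide, scored 97.15 and had its midpoint 41.5 bp past the start. The ATG16L2 peak at chr11:72813830-72814505 was 676 bp wide, scored 98 and had its midpoint 243.5 bp before the canonical start. Of the 7 ATG8 genes in these sets, GABARAP had a start peak in both lists, MAP1LC3B had one by its canonical start in shLacZ, and the other 5 had no peak in either list.

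The conjugation genes held 6 shLacZ peaks and 20 shRRN3 peaks. A peak of the other list overlapped 4 of the 6 shLacZ peaks, beside 66.2% of all shLacZ peaks. Among the 20 shRRN3 peaks 3 were overlapped, beside 16.9% of all shRRN3 peaks. The overlapping places were the ATG10 start, the RPS23 start and the stretch before GABARAP. Only the peaks at the ATG10 start and before GABARAP shared at least 50% of their length in both lists.

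Of the 20 shRRN3 peaks, 6 were start peaks and 14 lay elsewhere, 6 of these in introns of the canonical transcripts of ATG5 and ATG12. The start peaks had a median width of 751 bp and a median score percentile of 64.3 within the list. The others had a median width of 298 bp and a median percentile of 32.3. Over the whole shRRN3 list, peaks at a protein-coding start had a median width of 612 bp and a median percentile of 61.5, and the remaining peaks had medians of 370 bp and 45. The 14 include the peak at the RPS23 start, so the remaining peaks of the list are not a like set for them. GC content was read from the same peaks. In shRRN3 the 6 start peaks had between 58.3% and 67.5% G and C, with a median of 62%, and the 14 others had between 27.5% and 54.8%, with a median of 38%, beside 61.7% for all shRRN3 peaks at protein-coding starts and 42.9% for the rest. In shLacZ the start peaks of ATG10 and GABARAP had 72.5% and 65.9%, beside a median of 64.0% for all shLacZ peaks at starts. The 4 other shLacZ peaks had between 48% and 75%, with a median of 57.0%. All shLacZ peaks at no protein-coding start had a median of 43.5%. That is not a like set, since the 4 include the pair at the RPS23 start and the MAP1LC3B peak at the FBXO31 span start. The highest value, 75%, was that of the peak at the canonical MAP1LC3B start.

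**Figure D4:**
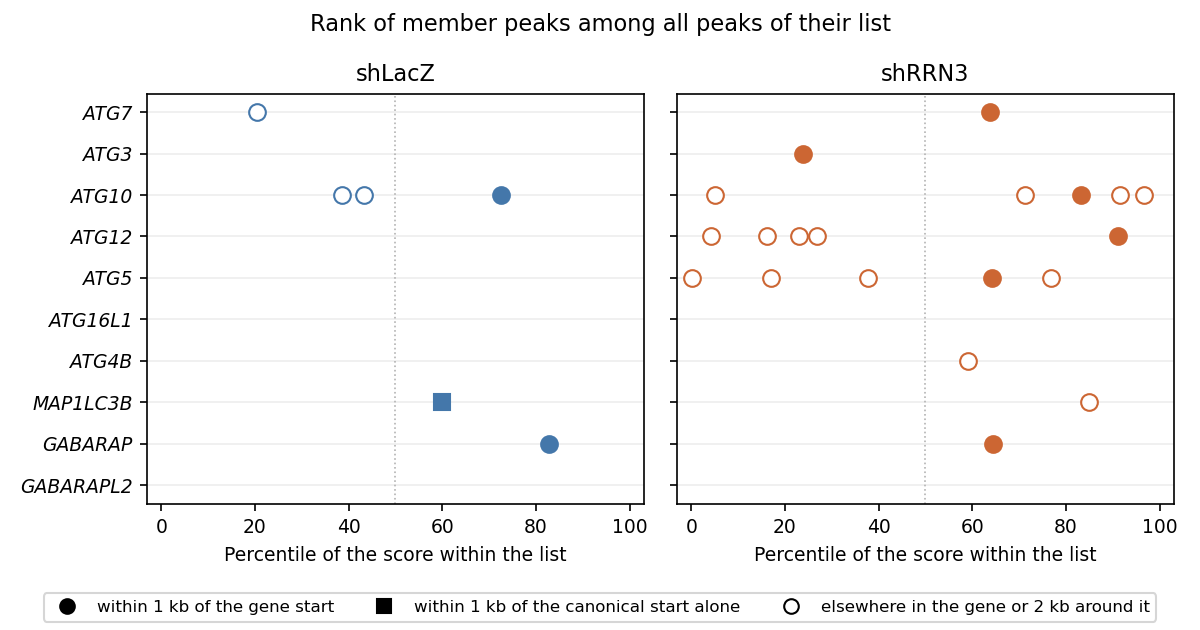
Percentile of the score of each recorded peak within its own list (horizontal axis, where 100 is the highest score) for the 10 genes, with shLacZ on the left and shRRN3 on the right. Filled circles are start peaks, the filled square is the shLacZ peak at the canonical MAP1LC3B start, open circles are peaks elsewhere and the dotted line marks the median. The shRRN3 start peaks run from 23.9 at ATG3 to 91.0 at ATG12, and ATG12 and ATG5 also have peaks below 5 away from their starts.

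The promoters of the 10 genes were then compared by sequence, in RefSeq windows of 300 bases on GRCh38 from 250 before to 50 after the start. All 10 genes had a window in the table, with a second window for ATG5, and 22198 windows of protein-coding genes served as the background. The 11 windows had a median GC content of 66.7%, beside 62.3% over the background, and a median observed over expected CpG ratio of 0.949, beside 0.737. The second ATG5 window was the exception, at 27.7% GC, and held the TATAAA match, a motif found in 9.47% of the background. Peaks of shRRN3 covered all 300 bases of the windows of ATG3, ATG10 and ATG12 and of the GC-rich window of ATG5, and 99 bases of that of ATG7. Peaks of shLacZ covered all 300 bases of the windows of ATG10 and MAP1LC3B and none of the others. A window was thus overlapped in 5 of the 10 genes in shRRN3 and in 2 of the 10 in shLacZ. Over the 15842 protein-coding genes with a window, the shares were 25.8% in shRRN3 and 8.07% in shLacZ.

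Matches to GGGCGG were found in the windows of 9 of the 10 genes, all but ATG12, beside 56.3% of the background windows. CCGGAAG, the ETS motif, was found in 5 genes, ATG3, ATG5, ATG7, ATG16L1 and GABARAPL2, beside 12.8% of the background. Of these 5, the first 3 had a start peak in shRRN3 and the other two had no peak in either list. CACGTG was found in ATG3 alone, with 2 matches that were both of the GTCACGTG type, beside 8.34% of the background for the shorter and 3.08% for the longer motif. AAGATGGC was found in ATG12 (3.53% of the background), GCATGCGC in MAP1LC3B (3.74%), and CCAAT in ATG3, ATG4B and ATG5 (34.7%). TGACGTCA was in none of the windows, beside 2.26% of the background. The matches of the ATG5, ATG12 and GABARAP stretches printed above lie before the RefSeq windows of these genes and so are not in these counts. They include the GC boxes of ATG12 and the CLEAR-type E-box of GABARAP.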

How the data were processed

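Pol II chromatin immunoprecipitation was sequenced by the authors on a BGISEQ-500 instrument. The deposited files were 1 peak list per Pol II library, each giving position, name and a score, with peaks called in each library separately. Peak names carry the name MACS. The version, aligner, duplicate handling, threshold and use of the input are not given in the sources used here. The deposited score, made by the authors' peak caller, was taken as 10 times the −log10 of a p-value, since its lowest value was 50.03 in shLacZ and 50 in shRRN3. Scores depend on depth, so they were ranked within a list. The exception was an alternative that applied the same minimum score to both lists. The build was hg38 per the labels.

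Genes came from GENCODE release 44, and the gene start was the bound of the annotated span. Peaks overlapped when they shared at least 1 bp. Peaks outside chromosomes 1 to 22, X and Y, 94 in shLacZ and 41 in shRRN3, could not touch a gene. The genes and lists were chosen with earlier results of these data known. The named genes were the 10 conjugation genes, their promoter partners, the fixed list of other pathway genes, and other genes where a result turned on them. No test was possible with 1 library per hairpin.

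Alternatives were other windows, any transcript start, a score of at least 66.05 (the shLacZ median), other overlaps and the reduced shRRN3 list. The canonical start and the RefSeq promoter window were added after seeing the data. The counting was tested on simulated data, in which all 4046 start peaks planted in the simulated shRRN3 list were recovered, and checked against bedtools 2.31.1. The planted midpoints lay inside the start window, at genes far from any other protein-coding start. Full recovery therefore checks the code alone, and shared promoters were not tried. Python 3.11.15, numpy 2.4.6, pandas 2.3.3 and matplotlib 3.10.9 were used.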

Additional observations from a re-analysis of the deposited data

How the results depend on the processing

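Of 40 alternative values for 10 counts, 32 stayed within 1.5 times the reported count and 8 were lower. The 32 include all values for other pathway genes with a start peak in shLacZ. Those genes had no peak in that list, so these values could only be 0. The 32 also include a rise from 2 to 3 genes in shLacZ with the canonical or any transcript start. With the shRRN3 list reduced to the length of the shLacZ list, genes with a recorded peak numbered 4 in place of 8, genes with a start peak 2 in place of 6, peaks 6 in place of 20, and other pathway genes with a start peak 0 in place of 2. With a score of at least 66.05 in both lists, peaks numbered 3 in place of 6 in shLacZ and 11 in place of 20 in shRRN3, and ATG3 lost its start peak. A start window of 0.5 kb left 1 gene in shLacZ in place of 2, since the GABARAP peak was lost. Requiring 50% of both peaks left 2 overlapped shLacZ peaks in place of 4. These alternatives keep fewer peaks by construction. Start peaks in the reduced shRRN3 list were found at 9.74% of all protein-coding genes. For the other lower counts, the share of all genes or peaks at the same setting is not given here. Those counts therefore cannot be set against the loss among all genes or peaks. No paired analysis was possible because each hairpin had 1 library and no count came from a test. Depth is unknown from the files used, so a missing peak says that none was called in that list and not that Pol II was absent.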
